A study of Mus musculus with 43 samples.

Results

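The 9 genes described here, *Isg15*, *Ifit1*, *Ifit3*, *Irf7*, *Stat2*, *Bst2*, *Oasl2*, *Usp18* and *Rtp4*, are type I interferon response genes. They were chosen by their symbols out of the 54532 genes of a table of read counts, with earlier results of these data known. All 9 had a count in every one of the 43 libraries and passed the filter on low counts. Each library was bulk RNA from a pool of 2 retinas, taken from 2 C57BL/6J mice of 1 group that were lasered at 9 weeks of age to induce choroidal neovascularization (CNV), the growth of vessels from the choroid under the retina. Males and females received plain water (control) or short-chain fatty acids (SCFA, 67.5 mM sodium acetate, 40 mM sodium propionate and 25 mM sodium butyrate by the labels, whose weights per volume for propionate and butyrate do not match these molarities) in the drinking water from before the laser until tissue collection at 3, 7 or 14 days post laser (dpl), which gave 12 groups of 3 to 5 libraries. Every retina, in the control groups too, carried the laser lesion, and no unlasered retina is analysed here, so levels at 3 dpl have no baseline beneath them.

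Library totals ran from 14826957 to 21507527 counts (median 17683615). By these unscaled totals 3 counts, taken as the floor, stood for 0.139 to 0.202 counts per 1000000 (CPM). The CPM values of genes used totals over the genes tested, scaled by TMM normalization factors. The floors are therefore not on the same scale as those values. The intervals given for single genes cover counting error and the spread between these libraries, which are pools, not single animals. The floors stand for a fixed 3 counts and hold no such spread. The first 31 columns of the table form a complete pass over the group names and the last 12 a partial one, called the first and second run here, and mitochondrial mRNAs took 4.71% to 14.8% of the counts in the first run and 2.50% to 4.57% in the second. The labels say nothing of this split, which was used as a block in every comparison. All 8 photoreceptor markers were abundant in every library, the lowest of them, the cone arrestin gene *Arr3*, between 170 and 501 CPM. The library labelled female control 7 dpl replicate 2 held 784 counts over 4 Y-linked genes, against 0 in the other 21 libraries labelled female and 2229 to 4494 in the male ones. The values without this library are given where it bears on a result.

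Type I interferons are secreted proteins that signal through the receptor chains IFNAR1 and IFNAR2 and the kinases JAK1 and TYK2. These phosphorylate STAT2, which joins IRF9 in a complex, ISGF3, that binds the interferon-stimulated response element in the promoters of target genes. In the retina, microglia, Müller glia, vessels and neurons can all carry this response, and the proteins it makes act against viruses, tag other proteins, or turn the signal up or down. Among the 9 genes, *Stat2* encodes a subunit of ISGF3 and *Irf7* a transcription factor that amplifies interferon production. *Ifit1* and *Ifit3* encode RNA-binding antiviral proteins that act together, *Oasl2* a protein of the oligoadenylate synthetase family, and *Bst2* the membrane protein tetherin. *Isg15* encodes a ubiquitin-like tag, *Usp18* the protease that removes this tag and also damps signalling at IFNAR2, and *Rtp4* an interferon-inducible receptor transporter protein.

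The response element is a sequence feature that the choice of symbols did not use. Promoters were taken from RefSeq (GRCm38.p6), for which 7 of the 9 genes had an entry; *Usp18* and *Rtp4* had none. The 250 bases before each start were searched on both strands for the core of the element, GAAA followed by any 2 bases and GAAA, with overlapping matches counted. They occurred before 5 of the 7 genes, before 12 of 58 promoters of other interferon targets (20.7%) and before 978 of all 32851 promoters (2.98%). The longer form that continues with CT was present before 3 of the 7, before 7 of the 58 (12.1%) and before 0.222% of all promoters. *Irf7* and *Oasl2* had no match to either form in this window. The stretches with matches are shown because they carry the sequence through which this pathway is known to act, 5′ to 3′ on the strand of the gene, with the bases on each side of the matches in lower case. Capitals mark the matches, and TTTC, any 2 bases and TTTC is the same motif on the opposite strand.
*Isg15*, chr4:156200863-156200908, minus strand, 3 overlapping matches between 78 and 57 bases before the start: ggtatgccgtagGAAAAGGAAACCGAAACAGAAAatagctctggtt
*Ifit1*, chr19:34640773-34640825, plus strand, 2 matches between 104 and 76 bases before the start: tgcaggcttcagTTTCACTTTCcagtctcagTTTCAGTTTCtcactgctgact
*Ifit3*, chr19:34583361-34583428, plus strand, 2 matches between 156 and 113 bases before the start: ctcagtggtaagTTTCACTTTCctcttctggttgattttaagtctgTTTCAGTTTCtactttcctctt
*Stat2*, chr10:128270264-128270297, plus strand, 1 match between 222 and 213 bases before the start: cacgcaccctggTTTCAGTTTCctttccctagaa
*Bst2*, chr8:71537575-71537614, minus strand, 2 overlapping matches between 130 and 115 bases before the start: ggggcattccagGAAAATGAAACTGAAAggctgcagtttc

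The matches of *Ifit1* and *Ifit3* are both on the strand opposite to the gene and spaced apart, whereas those of *Isg15* and *Bst2* overlap on the strand of the gene. The match of *Stat2* lies farthest from its start and is the only one in its window. The RefSeq start of *Stat2* lies 61 bases before the start of the gene in GENCODE M21, the bases after it were not found in a GENCODE transcript of the gene, and counted from the GENCODE start the match would lie outside the window of 250 bases. A match is a description of the letters and not of binding, which was not measured.

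The levels of the 9 genes were compared per kilobase (kb) of merged exons, from the GENCODE M21 annotation. *Ifit3* (16.2 ± 6.29 CPM per kb, SD over 43 libraries) and *Bst2* (15.5 ± 7.62) were the highest. *Stat2* (7.08 ± 1.36), *Isg15* (6.98 ± 3.31) and *Irf7* (6.39 ± 1.72) followed and did not differ from each other beyond their SDs. *Ifit1* (3.90 ± 2.42) and *Oasl2* (3.25 ± 1.48) were lower, and *Rtp4* (1.31 ± 0.612) and *Usp18* (1.28 ± 0.658) were the lowest and lay within their SDs of each other. The 9 genes are protein-coding and lie on 8 chromosomes (GRCm38): *Isg15* at chr4:156199424-156200818, *Oasl2* at chr5:114896936-114912234, *Usp18* at chr6:121245906-121270917, *Irf7* at chr7:141262706-141266481, *Bst2* at chr8:71534255-71537456, *Stat2* at chr10:128270559-128292849, *Rtp4* at chr16:23520291-23614222, and *Ifit3* and *Ifit1* as neighbours at chr19:34583531-34588731 and chr19:34640871-34650009. The raw counts behind these values ran from 18 in the lowest library of *Rtp4* to 1248 in the highest of *Ifit3*, so that no member was near the floor.

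Some of these counts are uncertain because genes share sequence. Of the 100-base windows of the transcripts of *Ifit3*, 31.7% occur in another gene, mostly in its near copy *Ifit3b*, and so do 3.29% of those of *Ifit1*, shared with *Ifit1bl2*. *Rtp4* shares 9.28% of its windows with *Gm45338*, which overlaps 13.9% of its exon bases on the same strand. *Gm44148* overlaps 4.44% of the exon bases of *Usp18* and *Phrf1* 1.19% of those of *Irf7*, both on the opposite strand, and reads from such pairs cannot be told apart because the strand setting of the counting is not given in the sources used here.

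**Figure D1:**
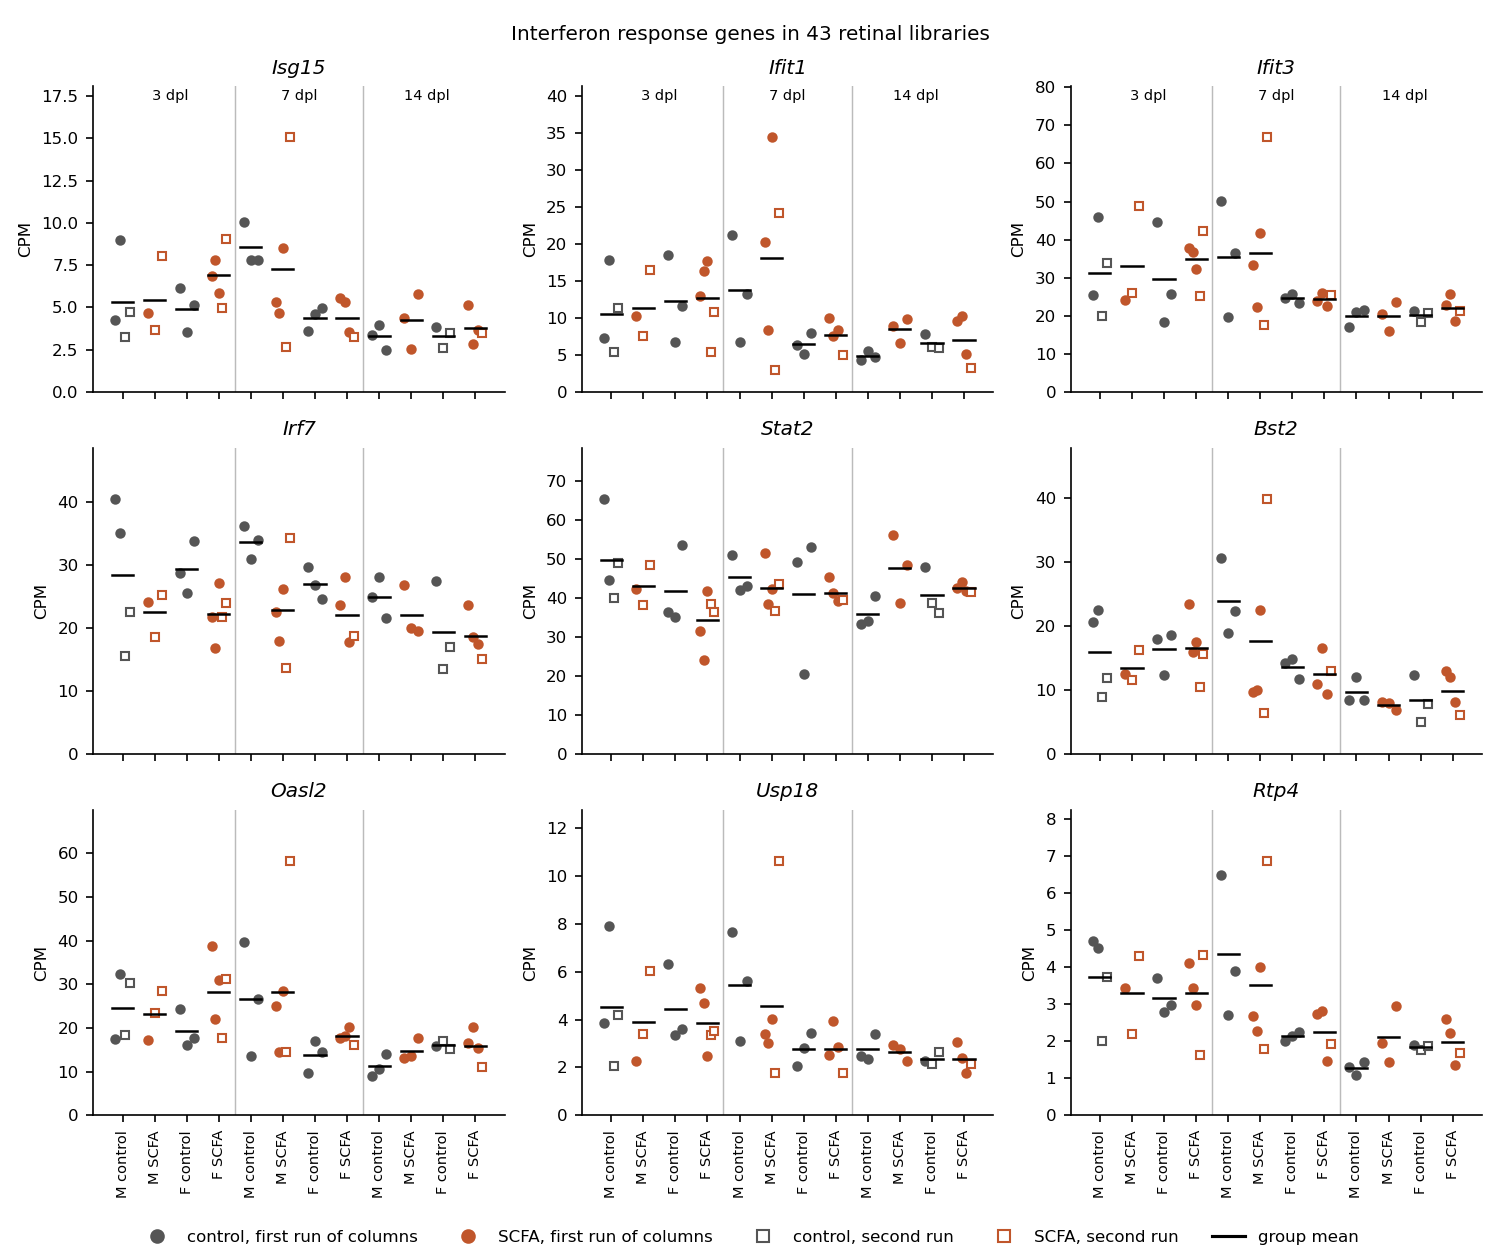
Level of each interferon response gene in every library (y axis, CPM, linear from 0) by group (x axis, M male, F female). Filled circles are libraries of the first run of columns, open squares those of the second, and bars are group means. For Ifit1, Ifit3, Bst2, Oasl2, Usp18 and Rtp4 every 14 dpl library lies below the 3 dpl median, and for all genes but Irf7 and Stat2 the highest library is a male SCFA one at 7 dpl.

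The levels differed by day. For each gene, the 14 dpl groups were set against the 3 dpl groups of the same sex and treatment and the 4 differences were averaged, a comparison that was added after the data had been seen. By mean CPM, 8 of the 9 genes were lower at 14 than at 3 dpl in all 4 strata (male control, male SCFA, female control and female SCFA), and *Stat2* in 2 of 4. In edgeR's quasi-likelihood test, 6 of the 9 fell with an adjusted p under 0.1 (Benjamini-Hochberg, over 18197 genes), against 1.63% of all genes that fell and 2.37% that passed in either direction. None reached the absolute log2 fold change over 1 that a differentially expressed gene (DEG) had to have as well, which 0.478% of all genes did. An unadjusted p under 0.05 was reached by 8 of the 9 and by 15.7% of all genes. The median log2 fold change of the 9 was -0.71, beside 0.01 for all genes tested.

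*Rtp4* and *Ifit1* had the largest changes, and *Rtp4* the smallest p. In male controls it was at 4.69, 4.51, 2.02 and 3.72 CPM at 3 dpl and at 1.29, 1.09 and 1.45 CPM at 14 dpl. In female controls it was at 3.71, 2.80 and 2.98 CPM and then at 1.91, 1.76 and 1.86 CPM. In both control strata every 14 dpl library was below every 3 dpl library. In SCFA retinas the days overlapped, with 3.43, 2.21 and 4.29 CPM at 3 dpl and 1.96, 1.44 and 2.95 CPM at 14 dpl in males. In SCFA females there were 4.10, 3.44, 2.98, 1.64 and 4.32 CPM at 3 dpl and 2.61, 2.23, 1.37 and 1.69 CPM at 14 dpl. Over the 4 strata, *Rtp4* changed by -0.94 ± 0.19 on the log2 scale (SE, adjusted p = 0.0083), that is to 0.521 of its 3 dpl level.

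*Bst2*, which encodes tetherin, a protein that holds budding virus particles at the cell surface, behaved alike in size. In SCFA males it was at 12.5, 11.5 and 16.3 CPM at 3 dpl and at 8.06, 7.87 and 6.84 CPM at 14 dpl, without overlap. In SCFA females it was at 23.4, 15.9, 17.5, 10.4 and 15.6 CPM and then at 13.0, 12.1, 8.04 and 6.11 CPM. The controls overlapped in males, with 20.5, 22.5, 8.92 and 11.8 CPM against 8.39, 11.98 and 8.39 CPM, and nearly met in females, with 18.0, 12.3 and 18.6 CPM against 12.3, 4.99 and 7.72 CPM. *Bst2* changed by -0.87 ± 0.20 on the log2 scale (adjusted p = 0.0236). Among the 9 genes it was also the one with an adjusted p under 0.1 within the SCFA groups alone (-0.92 ± 0.29, adjusted p = 0.0823), where 5.06% of all genes passed. When each library in turn was left out, 0 to 5 members passed within the SCFA groups, with 0 in most of these fits and 5 without female SCFA 14 dpl replicate 1 or female SCFA 3 dpl replicate 4.

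The antiviral genes *Ifit1*, *Ifit3* and *Oasl2* also fell. *Ifit1* ran from 5.36 to 18.5 CPM at 3 dpl (median 11.3, n = 15) and from 3.16 to 10.2 CPM at 14 dpl (median 6.06, n = 13), a change of -0.94 ± 0.24 (adjusted p = 0.0430). *Ifit3* ran from 18.2 to 48.7 CPM (median 32.2) and then from 16.03 to 25.7 CPM (median 21.04), a change of -0.64 ± 0.17 (adjusted p = 0.0457). *Oasl2* ran from 16.1 to 38.9 CPM (median 23.4) and then from 9.12 to 20.1 CPM (median 15.3), a change of -0.71 ± 0.18 (adjusted p = 0.0368). The ranges of the days overlapped for each of these genes, yet all 13 libraries of 14 dpl were below the 3 dpl median in *Ifit1*, *Ifit3* and *Oasl2*, as they were in *Bst2*, *Usp18* and *Rtp4*.

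Of the modifier pair, the protease gene *Usp18* fell and its substrate gene *Isg15* did not pass. *Usp18* ran from 2.07 to 7.90 CPM at 3 dpl (median 3.59) and from 1.76 to 3.41 CPM at 14 dpl (median 2.41), a change of -0.72 ± 0.22 (adjusted p = 0.0995). *Isg15* ran from 3.22 to 9.03 CPM (median 5.11) and then from 2.49 to 5.79 CPM (median 3.49), with a change of -0.64 ± 0.20 (adjusted p = 0.104). The values lie on opposite sides of the threshold of 0.1, and their difference was not tested.

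The 2 transcription factors gave the smallest differences. *Irf7* changed by -0.32 ± 0.12 (adjusted p = 0.187), from a median of 24.04 CPM at 3 dpl (15.5 to 40.5) to 19.9 CPM at 14 dpl (13.5 to 28.0). *Stat2* was at a median of 39.9 CPM at 3 dpl (24.01 to 65.4), 42.2 CPM at 7 dpl (20.3 to 53.1) and 41.4 CPM at 14 dpl (33.2 to 56.0), with a difference of -0.03 between 14 and 3 dpl and a 95% interval from -0.24 to 0.19. Of the 13 libraries at 14 dpl, 5 were below the 3 dpl median of *Stat2* and 9 below that of *Irf7*.

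Between 7 and 3 dpl, differences ran from -0.30 (*Ifit1*) to 0.06 (*Isg15*) on the log2 scale, and 0 of the 9 genes passed in edgeR, where 0.0055% of all genes did, with 0 of 9 at an unadjusted p under 0.05 (6.02% of all genes) and 0 passing in DESeq2. Between 14 and 7 dpl all 9 were lower, from -0.90 (*Bst2*) to -0.03 (*Stat2*). Of these, *Bst2* passed (-0.90 ± 0.20, adjusted p = 0.0966), among 0.0604% of all genes, and 8 of 9 had an unadjusted p under 0.05, as 10.3% of all genes did. These comparisons share the 7 dpl libraries, and both comparisons of 14 dpl share the 14 dpl libraries. The call of *Bst2* between 14 and 7 dpl was lost without the column block, within the first 31 columns and without the female control 7 dpl library with Y-linked transcripts.

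**Figure D2:**
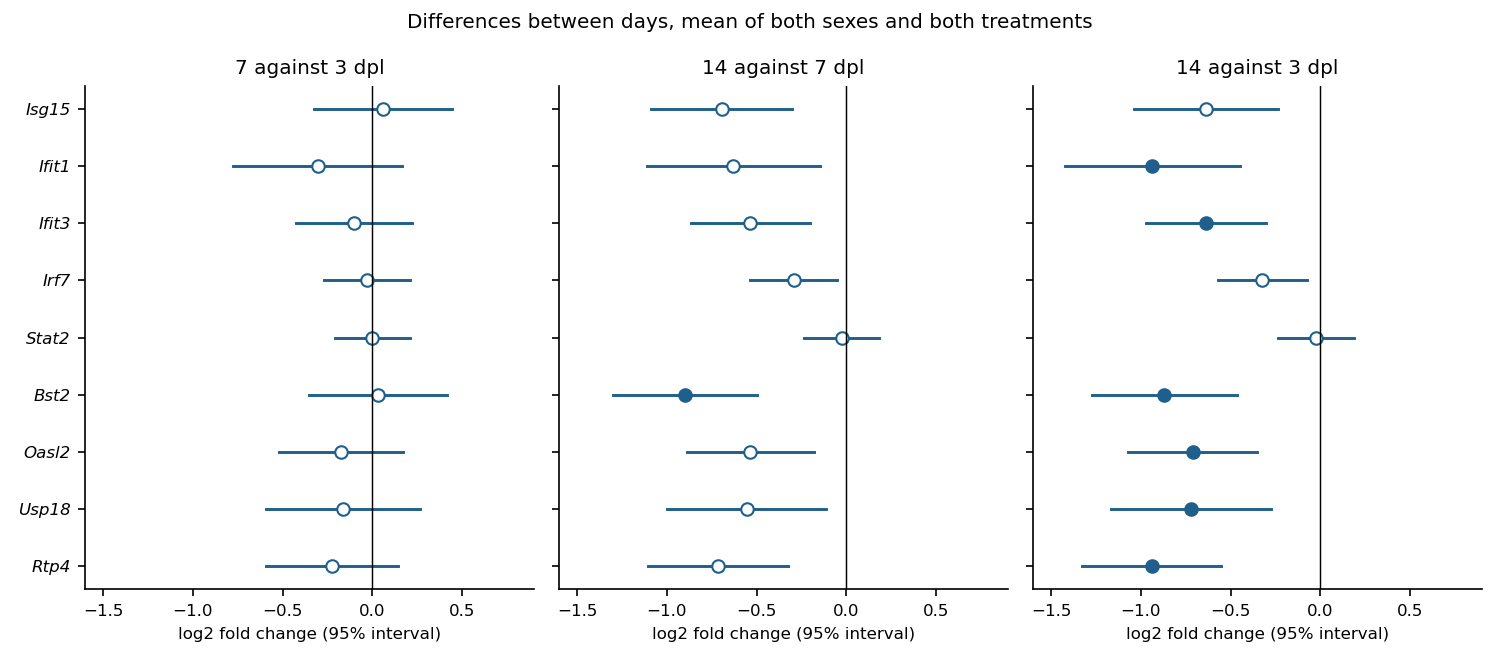
Log2 fold change between days (x axis), averaged over both sexes and both treatments, with its 95% interval, for each interferon response gene (y axis); filled points have an adjusted p under 0.1. Points sit near 0 for 7 against 3 dpl and left of 0 for 14 dpl against either earlier day, except those of Stat2.

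The number of members that passed between 3 and 14 dpl varied with the column block and with single libraries. Without the column block 4 of the 9 passed, and *Ifit1* (adjusted p = 0.270) and *Usp18* (adjusted p = 0.223) did not. Within the first 31 columns alone, 8 of the 9 genes were lower at 14 dpl (*Stat2* was at 0.04), with changes from -1.01 (*Rtp4*) to -0.24 (*Irf7*), and 1 passed, *Rtp4* (adjusted p = 0.0489), where 22 genes passed in all. In the last 12 columns only female SCFA retinas were present at both days, with 1 library at 14 dpl and so without a test: *Bst2* was at 10.4 and 15.6 CPM at 3 dpl and 6.11 CPM at 14 dpl, and *Rtp4* at 1.64 and 4.32 CPM and then 1.69 CPM. Without male SCFA 3 dpl replicate 3, 3 of the 9 passed. With 1 library left out, *Ifit1* reached -1.02 and *Rtp4* -1.01, so that 0 to 1 member was a DEG.

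Within each treatment, most of the genes were lower at 14 than at 3 dpl. In controls, the 9 genes changed by -1.14 (*Rtp4*) to -0.24 (*Stat2*), all lower at 14 dpl. In SCFA retinas they changed by -0.93 (*Ifit1*) to 0.19 (*Stat2*), with 8 of 9 lower. No member was a DEG in either, where 0.0714% and 1.08% of all genes were, although 8 and 6 of the 9 had an unadjusted p under 0.05 (4.07% and 19.6% of all genes) and DESeq2 called 1 member in controls. These treatment-wise comparisons share no libraries with each other, and the difference between them was not tested. Between 7 and 3 dpl no member was a DEG in controls (0% of all genes) or with SCFA (0%) in edgeR or DESeq2, and 0 of 9 had an unadjusted p under 0.05 in either (6.55% and 8.55%). Between 14 and 7 dpl no member was a DEG in controls (0%) or with SCFA (0.0055%) in either tool, and 5 and 4 of 9 had an unadjusted p under 0.05 (9.35% and 13.7%).

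Markers of other cell types moved with the days. Of 15 microglia and macrophage markers, all were lower at 14 than at 3 dpl and 6 passed, among them *C1qb* (-0.79), Itgam (-0.90) and *Cd68* (-1.01), with a median of -0.50 over the list. Their summed level ran from 75.1 to 169 CPM at 3 dpl (median 123), from 75.3 to 157 CPM at 7 dpl (median 108) and from 57.4 to 103 CPM at 14 dpl (median 83.7). Of 9 markers of infiltrating leukocytes, 8 had a median of 3 counts or fewer, among them the defining markers *Cd3e*, *Ms4a1*, *Nkg7* and *S100a8*, and the summed level was 0.605 to 3.36 CPM at 3 dpl and 0.283 to 1.38 CPM at 14 dpl. Of the 3 that could be tested, *Ccr2*, a chemokine receptor gene of monocytes, fell (adjusted p = 0.00352), from 87 counts in all over 15 libraries at 3 dpl to 4 counts over 13 at 14 dpl, and it was also a DEG in controls and with SCFA. Of 6 Müller glia markers, *Gfap* (-1.02, adjusted p = 0.00443) and *Vim* (-0.53, adjusted p = 0.0532) fell, with a list median of -0.17. The pigment epithelium and melanocyte markers were lower too (10 of 10, none passed, median -0.42). Within the SCFA groups alone, where *Bst2* passed, 8 of the 10 were DEGs (median -1.20). Their sums in SCFA libraries ran from 116 to 1944 CPM at 3 dpl and from 142 to 525 CPM at 14 dpl. The photoreceptor markers were not lower in the mean of 4 strata (median 0.03). The part of these cell types in the fall of the interferon response genes was not tested, and in bulk RNA fewer cells of a type and less RNA per cell cannot be told apart.

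The rest of the pathway was described from lists drawn up by function. None of 17 genes of type I interferons exceeded 3 counts in a library. *Ifnb1*, the gene of interferon beta, had 0 counts in all libraries, which allows a level of up to 0.202 CPM by unscaled totals in the shallowest. Of the 17, 5 had any count at all, at most 2. The receptor genes were counted throughout, *Ifnar1* between 23.7 and 47.1 CPM and *Ifnar2* between 3.88 and 8.67 CPM, as was *Irf9* (15.3 to 38.2 CPM).

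Between 3 and 14 dpl, 0 of the 6 genes of the receptor and JAK-STAT list passed in edgeR, with 2 of 6 at an unadjusted p under 0.05 and a list median of 0.01. *Irf9* changed by -0.24 ± 0.11 (adjusted p = 0.260). Of 53 other interferon targets tested, 13 passed, all lower, and 48 were lower (median -0.41). They included the small mitochondrial and membrane proteins' genes *Ifi27l2a* (-1.84) and *Ifitm3* (-0.58), the DNA-sensor family gene *Ifi204* (-1.63), and *Parp9* (-0.51). Of 12 genes more typical of interferon gamma, 6 passed, all lower (median -0.50), among them the guanylate-binding protein gene *Gbp3* (-0.71) and the GTPase genes *Irgm1* (-0.57) and *Igtp* (-0.55). Of 12 sensors and adaptors, *Ddx58*, which encodes the RNA sensor RIG-I, fell (-0.40 ± 0.12, adjusted p = 0.0813), and 0 of the 5 brakes of the pathway passed, with 2 of 5 at an unadjusted p under 0.05.

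**Figure D3:**
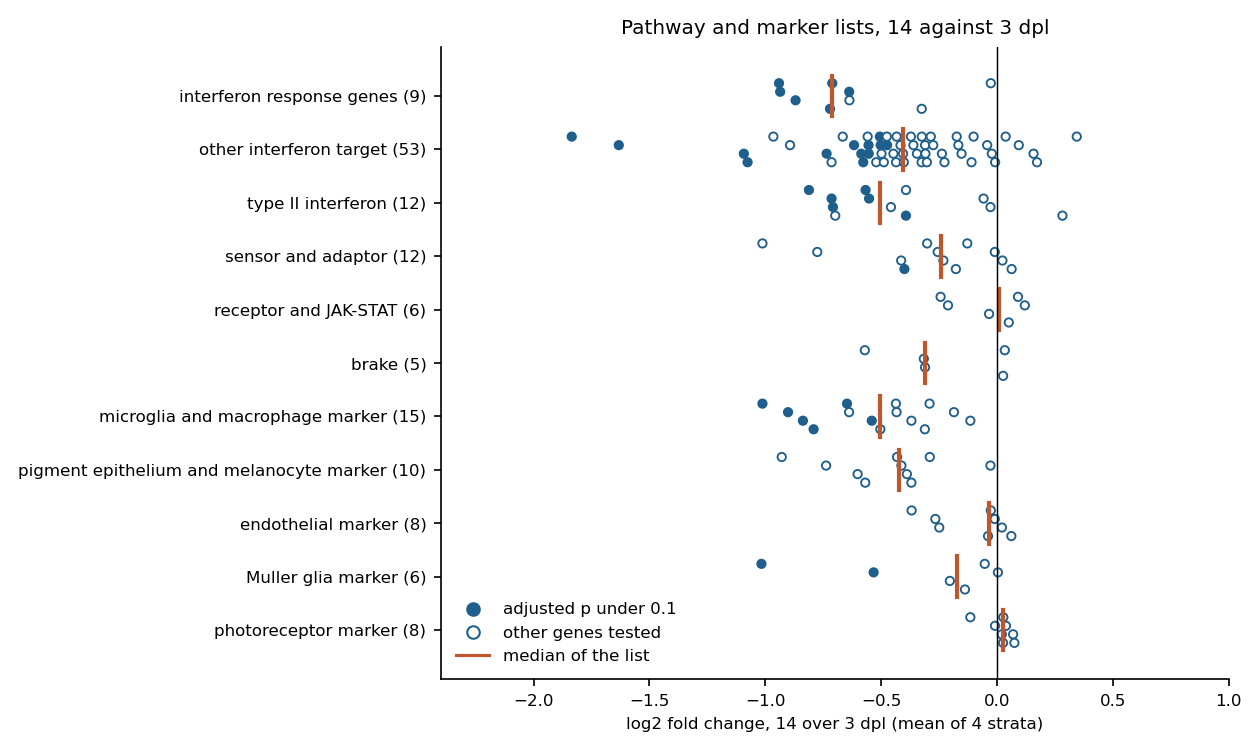
Log2 fold change of 14 over 3 dpl (x axis) for every tested gene of each pathway or marker list (y axis, with the number of genes tested). Filled points have an adjusted p under 0.1 and orange bars are list medians. The medians of the interferon response genes (-0.71), other interferon targets (-0.41) and microglia markers (-0.50) lie left of 0, and those of the receptor list (0.01) and photoreceptor markers (0.03) lie near it.

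SCFA was compared with control within each sex and day, which asks whether lasered retinas differed in supplemented mice. Without unlasered retinas, a changed response to the lesion cannot be told apart from a difference present before it. None of the 9 genes was a DEG in any of the 6 strata by edgeR or DESeq2. DEGs made up 0.011%, 3.37% and 1.07% of all genes in males at 3, 7 and 14 dpl and 2.09%, 0.121% and 0% in females. None of the 9 had an unadjusted p under 0.05 in a stratum, as 10.9%, 29.4% and 21.2% of all genes had in males and 21.5%, 15.8% and 2.91% in females, by day. Differences of the members ran from -0.42 (*Irf7*, males at 7 dpl) to 0.81 (*Ifit1*, males at 14 dpl) on the log2 scale, with SEs from 0.20 to 0.51, and the outermost bounds of their 95% intervals were -1.24 and 1.85. In males at 7 dpl, 2 members passed without SCFA replicate 5, *Irf7* (-0.66, adjusted p = 0.0215) and *Bst2* (-0.89, adjusted p = 0.0229). The share of all genes that passed in that fit is not given here, so this count cannot be set against it. With all libraries, 29.4% of all genes had an unadjusted p under 0.05 in this stratum. The interaction of sex and SCFA was past the threshold for 0 of 9 genes at each day in edgeR. An unadjusted p under 0.05 was reached by 0 of 9, and by 12.6%, 7.32% and 10% of all genes at 3, 7 and 14 dpl. No gene tested was a DEG of the interaction at any of these days (0%).

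Averaged over the 6 strata, *Irf7* was the member with an adjusted p under 0.1. In males, control retinas had 40.5, 35.1, 15.5 and 22.4 CPM at 3 dpl, 36.1, 30.9 and 34.0 CPM at 7 dpl and 24.9, 28.0 and 21.6 CPM at 14 dpl. Male SCFA retinas had 24.04, 18.5 and 25.2 CPM at 3 dpl, 22.4, 17.9, 26.2, 13.6 and 34.3 CPM at 7 dpl, and 26.8, 19.9 and 19.4 CPM at 14 dpl. The groups overlapped at each day, and the male SCFA mean was lower each time. In females, control retinas had 28.7, 25.5 and 33.8 CPM at 3 dpl, 29.7, 26.7 and 24.5 CPM at 7 dpl and 27.5, 13.5 and 17.0 CPM at 14 dpl. Female SCFA retinas had 21.6, 16.7, 27.1, 21.7 and 23.9 CPM at 3 dpl, 23.5, 28.1, 17.7 and 18.7 CPM at 7 dpl and 23.6, 18.5, 17.4 and 15.1 CPM at 14 dpl.

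The difference of *Irf7* over all strata was -0.25 ± 0.10 (adjusted p = 0.0621), a level of 0.844 of that in controls, lower in 6 of 6 strata. In females at 14 dpl this direction turned over the libraries that the study lists (0.39) and with 1 library left out (up to 0.10). Of all genes tested, 34.7% passed this comparison, and 17% passed with a lower level, so that 1 of 9 members is a smaller share than that of all genes. An unadjusted p under 0.05 was reached by 1 of 9 members and by 38.2% of all genes, and 0 members were DEGs, as 0.703% of all genes were. Within the first 31 columns the difference was -0.43 (adjusted p = 0.0012), and without male SCFA 3 dpl replicate 1 the adjusted p was 0.105. In the last 12 columns *Irf7* was 0.19 higher with SCFA in males at 3 dpl and 0.00 different in females at 14 dpl.

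Of the other members in the mean of 6 strata, *Ifit1* (0.35 ± 0.19, adjusted p = 0.174) and *Oasl2* (0.21 ± 0.14, adjusted p = 0.293) had the highest values. *Stat2* (-0.00 ± 0.08) had the narrowest interval, from -0.17 to 0.17. The median of the 9 was 0.07, beside 0.00 for all genes. Upstream, *Ifnar1* was lower with SCFA (-0.27 ± 0.05, adjusted p = 0.000158), *Tyk2* was lower (-0.23 ± 0.09, adjusted p = 0.0556) and *Jak1* was higher (0.11 ± 0.05, adjusted p = 0.0828). Of 5 brakes of the pathway, *Ptpn2*, a phosphatase gene that restrains JAK signalling, was lower (-0.26 ± 0.06, adjusted p = 0.000547) and *Pias1*, an inhibitor of STAT proteins, was higher (0.20 ± 0.05, adjusted p = 0.00244). Of 53 other interferon targets, 1 was higher, *Ifit2* (0.23), and 4 were lower, *Adar*, *Daxx*, *Ly6e* and *Shisa5* (-0.36 to -0.20), with a median of 0.01.

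**Figure D4:**
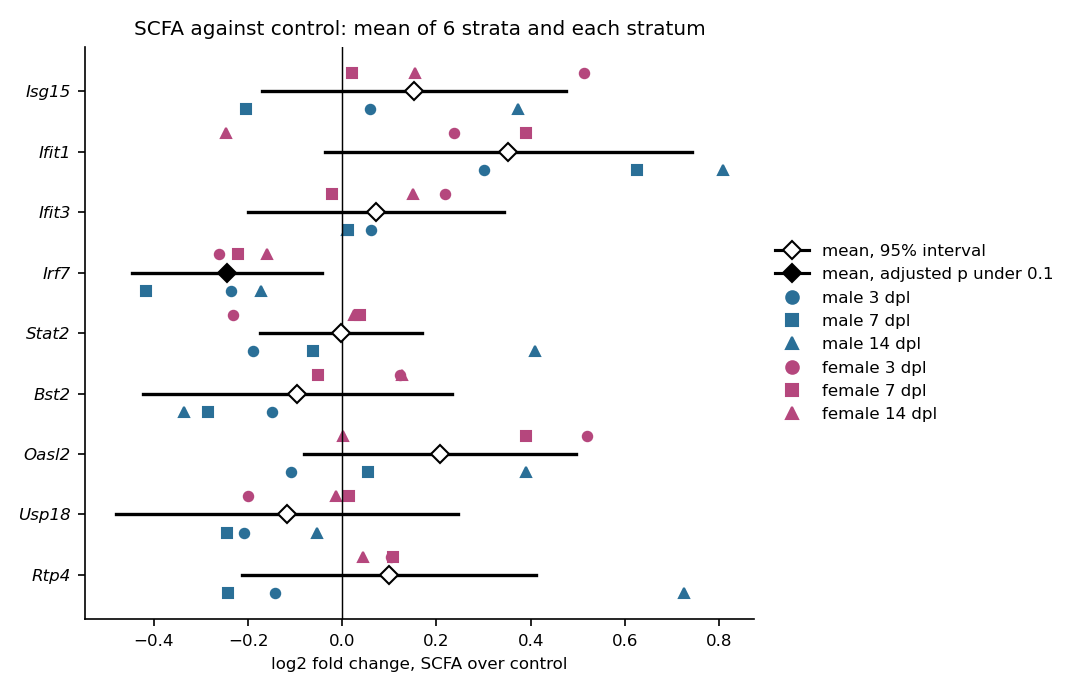
Log2 fold change of SCFA over control (x axis) for each interferon response gene (y axis). Diamonds and lines give the mean of 6 strata with its 95% interval, filled at an adjusted p under 0.1, and small symbols give the 6 strata by sex and day. All 6 strata of Irf7 lie left of 0, whereas each of the other genes has strata on both sides.

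In single strata, pathway genes outside the 9 were DEGs. In males at 7 dpl, *Gbp7*, an interferon-gamma target, rose with SCFA (1.48 ± 0.32, adjusted p = 0.00197) and the antiviral GTPase gene *Mx1*, at a mean of 0.274 CPM, fell (-1.96 ± 0.80, adjusted p = 0.0903). Among 53 other targets in that stratum, *Cmpk2*, *Ifit2*, *Slfn5* and *Trim21* rose by 0.56 to 0.90 on the log2 scale and *Ly6e* and *Mx1* fell, *Ly6e* by 0.45. Of all genes in that stratum, 3.37% were DEGs and 29.4% had an unadjusted p under 0.05. The share that passed there is not given here, so the number of these targets cannot be set against it. In the mean of 6 strata, 34.7% of all genes passed, and 17% passed with a lower level. Beside these shares, 3 of 15 microglia markers were lower with SCFA, *C1qa* (-0.53), *Trem2* (-0.39) and *Csf1r* (-0.30). Lower too were 1 of 8 endothelial markers, *Vwf* (-0.62), and 1 of 5 blood markers. Higher were 3 of 6 Müller glia markers, *Glul*, *Aqp4* and *Rlbp1* (0.21 to 0.24), and 1 of 8 photoreceptor markers. The part of these markers in the value of *Irf7* was not tested.

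The sexes were compared because the study asks whether males and females respond alike. At 7 dpl all 9 genes were higher in males, from 0.15 to 1.09 on the log2 scale in controls and from 0.05 to 1.32 with SCFA, and none was a DEG in edgeR or DESeq2, where 0.0275% and 0.115% of all genes were. An unadjusted p under 0.05 was reached by 5 of 9 in controls and 4 of 9 with SCFA, and by 3.81% and 10.2% of all genes. Directions turned with 1 library left out for *Stat2* in controls (-0.17, without the library with Y-linked transcripts) and, with SCFA, for *Bst2* (-0.12), *Irf7* (-0.16) and *Stat2* (-0.02), of which up to 2 turned at once. *Isg15* was at 10.1, 7.79 and 7.83 CPM in male and at 3.58, 4.62 and 4.99 CPM in female controls at 7 dpl, without overlap. With SCFA it was at 5.31, 4.66, 8.51, 2.67 and 15.1 CPM in males and at 5.54, 5.29, 3.53 and 3.22 CPM in females, and the ranges overlapped. *Ifit1* gave the largest difference at 7 dpl, with 21.2, 6.72 and 13.3 CPM in male and 6.39, 5.09 and 7.98 CPM in female controls, and with 20.3, 8.29, 34.4, 2.89 and 24.2 CPM in male and 10.03, 7.59, 8.35 and 4.92 CPM in female SCFA retinas.

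Averaged over both treatments, a comparison added after the data had been seen, *Ifit1* was 1.203 ± 0.32 higher in males on the log2 scale at 7 dpl (adjusted p = 0.198) and *Isg15* 0.85 ± 0.26 (adjusted p = 0.456). An unadjusted p under 0.05 was reached by 7 of the 9, as by 5.25% of all genes, and an adjusted p under 0.1 by none, as by 0.22%. The libraries labelled female control include the one with Y-linked transcripts, without which the median of the 9 was 0.86 in place of 0.79, *Stat2* was at -0.06 and 0 passed. All 6 myelin markers were higher in males at 7 dpl in the same comparison (median 3.24, 6 DEGs), with a summed level of 30.6 to 852 CPM in 8 male libraries and 23.9 to 32.7 CPM in 7 female ones, and their part in the difference was not tested. At 3 and 14 dpl the members lay between -0.89 and 0.34 on the log2 scale between the sexes, with 0 of 9 at an unadjusted p under 0.05 and 0 DEGs by edgeR or DESeq2. DEGs made up 0.0385%, 0.44%, 2.82% and 0.033% of all genes in controls at 3 and 14 dpl and with SCFA at 3 and 14 dpl, and genes at an unadjusted p under 0.05 made up 5.17%, 18.1%, 26.5% and 2.55%. Over all 6 strata of treatment and day, a comparison also added later, the members were 0.13 to 0.36 higher in males, 0 passed in edgeR or DESeq2 where 2.31% of all genes did, and *Usp18* alone had an unadjusted p under 0.05 (16% of all genes).

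Within groups, the interferon response genes varied more between libraries than most genes of like abundance. Their biological coefficient of variation in edgeR ran from 18.5% (*Stat2*) to 40.6% (*Ifit1*), and its ratio to the trend at that abundance exceeded the ratio of 82.6% (*Rtp4*) to 98.6% (*Ifit1*) of all genes. Over all 43 libraries, and so across groups and days, the highest library was 3.00 times (*Irf7*) to 11.9 times (*Ifit1*) the lowest.

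The spread within groups was shared. Each gene's log2(CPM + 1) was taken as a deviation from an additive fit of group and run of columns, over 43 libraries. The deviations of *Ifit3* followed the mean of the other 8 genes most closely (Pearson r = 0.929, Spearman coefficient = 0.869) and those of *Rtp4* (r = 0.861), *Isg15* (0.836), *Ifit1* (0.829), *Bst2* (0.817), *Usp18* (0.808), *Oasl2* (0.797) and *Irf7* (0.671) less so. *Stat2* stood apart at r = 0.177. Among the 28 pairs without *Stat2*, r ran from 0.404 to 0.895 (median 0.736), and among the 8 pairs with it from 0.0354 to 0.452 (median 0.131). These correlations are descriptions, since points of a pair share a library and its depth. Without the 2 libraries farthest from the median, r of the 8 genes was 0.503 to 0.909 and that of *Stat2* 0.147.

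Those 2 libraries were both of male SCFA retinas at 7 dpl. Replicate 5 was on average 1.05 above the fit of group and run on the log2 scale, with 15.1 CPM of *Isg15*, 24.2 of *Ifit1*, 67.0 of *Ifit3*, 34.3 of *Irf7*, 39.9 of *Bst2*, 58.3 of *Oasl2*, 10.6 of *Usp18* and 6.87 of *Rtp4*. Replicate 4 was 0.75 below, with 2.67, 2.89, 17.5, 13.6, 6.28, 14.6, 1.78 and 1.78 CPM of the same genes. *Stat2* was at 43.6 CPM in replicate 5 and at 36.7 CPM in replicate 4. The summed microglia markers were at 108 CPM in replicate 5 and at 75.3 CPM in replicate 4, inside the range of the 5 libraries of the group at the first and at its lower end at the second, and their part was not tested.

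**Figure D5:**
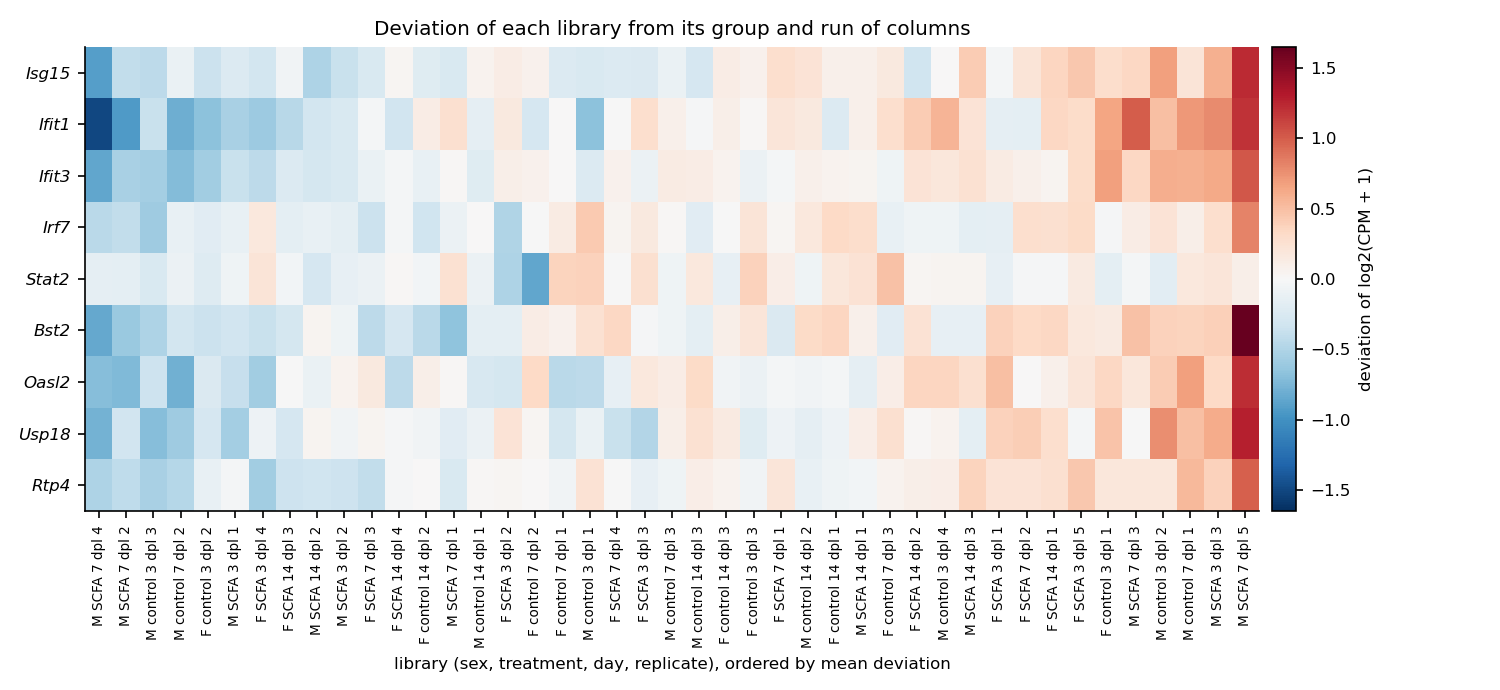
Deviation of log2(CPM + 1) from an additive fit of group and run of columns (colour) for each interferon response gene (y axis) in 43 libraries (x axis, ordered by their mean deviation). The libraries run from male SCFA 7 dpl replicate 4 at the left (-0.75) to replicate 5 at the right (1.05), and the line of Stat2 does not follow this order.

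Among 14928 other genes with a mean over 1 CPM, those whose deviations were most like the mean of the 9 included *Gbp3* (r = 0.895), *Ifit3b* (0.838), *Xaf1* (0.827), *Igtp* (0.791), *Parp9* (0.789), *Irgm1* (0.783), *Ube2l6* (0.762), *B2m* (0.756) and *Ifitm3* (0.756). The median r over these 14928 genes was 0.001, and 0.435% exceeded 0.5. *Ifit3b* shares transcript sequence with *Ifit3*, so that their counts may hold some of the same reads, which was not tested. For each marker list, the deviations of its genes with a mean over 1 CPM were averaged. The average of the microglia markers had an r of 0.486 with the mean of the 9. That of pigment epithelium and melanocyte markers had 0.281, endothelial markers 0.107, photoreceptor markers -0.119 and myelin markers -0.286.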

How the data were processed

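Bulk RNA of 43 retina pools was measured. The authors deposited a table of raw read counts per gene, and the submitters' processing notes name the build mm10 and DESeq2. The aligner, counter, annotation and strand setting are not given in the sources used here. Of 54532 genes, 54495 were found in GENCODE M21. CPM used library totals over the genes tested, scaled by TMM factors, whereas the floors used unscaled totals over all genes.

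Differences were tested with edgeR 4.0.16 (R 4.3.3, limma 3.58.1): filterByExpr, TMM, a quasi-likelihood fit of 12 groups and the column run as a block over 18197 genes, with Benjamini-Hochberg adjustment. "Passed", "rose" and "fell" mean an adjusted p under 0.1, and a DEG also needed an absolute log2 fold change over 1, as in the study's methods. The code was tested on simulated data. DESeq2 1.42.0, other normalization and filters, no block and leaving out libraries were alternatives. Figures used Python 3.11.15, pandas 2.3.3 and matplotlib 3.10.9.

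The 9 genes and the lists were chosen with earlier results of these data known. The 22 comparisons within sex, treatment or day and the interactions were planned, and 5 means over strata were added after the data had been seen. Genes of other lists were named by DEG status or smallest adjusted p, up to 6 per list and comparison, apart from *Irf9*, *Ifnar1*, *Ifnar2* and *Ifnb1*, which were named whatever their values, and the 10 genes with the highest r to the mean of the 9 were to be named. Some genes that these rules name are not reported here. *Ptpn2*, *Jak1*, *Gbp7*, the other SCFA-dependent targets and the markers given with values were named because they passed.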

Additional observations from a re-analysis of the deposited data

Results flagged for a closer look

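In male SCFA retinas at 7 dpl, *Usp18* was at 10.6 CPM in replicate 5, and the next highest of the 5 libraries was at 4.01 CPM. The gap to the nearest library took 0.748 of the range of the group, above the critical value of Dixon's test for 5 libraries. This was 1 flag among the 45 gene and group combinations of 4 or 5 libraries that were tested, where chance flags about 1 in 20.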

How the results depend on the processing

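Most counts of members did not move with the processing, but those between 14 dpl and the earlier days and between the sexes at 7 dpl did. Averaged over strata, the number of members that passed between 14 and 3 dpl was 6, and 1 within the first 31 columns, which leave fewer libraries. Between 14 and 7 dpl, where *Bst2* passed, 0 passed at an adjusted p under 0.05, without the column block, with the replicate block, within the first 31 columns or without the female control 7 dpl library with Y-linked transcripts, whereas 3 passed with DESeq2 and 8 without the filter on low counts. Without that filter, 7 members passed between the sexes at 7 dpl and 1 over all strata, and 1 was a DEG between the sexes at 7 dpl in controls, 1 with SCFA and 1 between 14 and 3 dpl in controls. In controls between 14 and 3 dpl, 1 was also a DEG with the groups fitted alone and 1 with DESeq2. Without a threshold on the fold change, 1 member was called for SCFA in the mean of 6 strata and 1 between 14 and 3 dpl with SCFA. The shares of all genes past the threshold without the filter, with DESeq2 or with the groups fitted alone are not given here. The counts under these settings therefore do not show whether the members moved more than other genes. Where no construction shows the cause, the cause was not tested.

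Leaving out each library in turn gave 3 to 7 members past the threshold between 14 and 3 dpl and 0 to 1 between 14 and 7 dpl. Of these, 3 passed without male SCFA 3 dpl replicate 3, and 4 without female control 3 dpl replicate 1 or male control 3 dpl replicate 2. The number was 0 to 1 between the sexes at 7 dpl. For SCFA in the mean of 6 strata it was 0 to 2, with 0 without male SCFA 3 dpl replicate 1 and 2 without male control 7 dpl replicate 1 or male SCFA 7 dpl replicate 4, and in males at 7 dpl 0 to 2. The number of DEGs among the members was 0 to 1 between 14 and 3 dpl in the mean of 4 strata, 0 to 1 between the sexes at 7 dpl with SCFA, 0 to 1 between 14 and 3 dpl in controls and 0 to 2 with SCFA.

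Without the library with Y-linked transcripts, no member was a DEG by edgeR in the comparisons of SCFA, sex and day or in the sex by SCFA interactions. The differences then ran from -0.17 to 1.15 between the sexes at 7 dpl in controls, from -0.30 to 0.57 for SCFA in females at 7 dpl, from -0.35 to 0.23 between 7 and 3 dpl and from -0.94 to -0.30 between 14 and 7 dpl in controls, and from -0.53 to 0.39 for the interaction at 7 dpl. *Irf7* was at -0.25 (edgeR, adjusted p = 0.0690) for SCFA in the mean of 6 strata.

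In single strata, some signs turned over wide ranges with 1 library left out. Between the sexes at 3 dpl, *Ifit1* then ran from -0.38 to 0.45 with SCFA and *Ifit3* from -0.25 to 0.49 in controls. In the means over strata, signs turned mainly for values near 0. Between 14 and 3 dpl, *Stat2* was at 0.0389 within the first 31 columns and between -0.0586 and 0.0292 with 1 library left out. For SCFA in the mean of 6 strata, *Stat2* was at 0.00225 with RLE normalization, 0.000525 without the filter, 0.00185 with DESeq2, 0.0122 with at least 10 counts in every library, and between -0.0596 and 0.0356 with 1 library left out, and within the first 31 columns *Isg15* was at -0.00182 and *Ifit3* at -0.0606. Between the sexes at 7 dpl, *Stat2* was at -0.0607 without the library with Y-linked transcripts and between -0.0607 and 0.219 with 1 library left out. The SCFA difference of *Irf7* was 0.19 in males at 3 dpl in the last 12 columns. In females at 14 dpl it was 0.00483 in the last 12 columns, 0.39 over the libraries that the study lists, and between -0.31 and 0.10 with 1 library left out.

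Replicate numbers were shared between groups only as numbers: deviations of libraries with the same number had a mean r of 0.0154 (209 pairs, -0.467 to 0.487) and those with different numbers -0.00551 (635 pairs). With the replicate number as a block, 7 members passed between 14 and 3 dpl and 0 between 14 and 7 dpl. Every member had at least 18 counts in each library, and counting error adds to the spread at the lowest counts.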
